A study of Mus musculus with 13 samples.

Results

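The 7 genes described here move, store, release or recycle iron. They were taken by symbol from the 32285 gene rows of the deposited files, where each symbol has 1 row: Tfrc and Slc11a2 for uptake, Fth1 and Ftl1 for storage, Slc40a1 for export, Hmox1 for the breakdown of heme, and Slc11a1 for metal transport across the phagosome membrane. They were followed in all 13 libraries of single-cell RNA sequencing (scRNA-seq), by cell class and by tissue.

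Most cells take up iron as transferrin, which binds the transferrin receptor (Tfrc) and is carried into endosomes, from where the divalent metal transporter Slc11a2 moves ferrous iron into the cytosol. Iron that is not used is stored in ferritin, a shell built of heavy (Fth1) and light (Ftl1) chains, or leaves the cell through ferroportin (Slc40a1), while macrophages recover iron from the heme of engulfed red cells with heme oxygenase 1 (Hmox1). When a cell is poor in iron, the iron regulatory proteins bind a short RNA hairpin, the iron-responsive element, which blocks translation when it lies in a 5′ UTR and stabilizes the mRNA when it lies in a 3′ UTR.

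That control acts on transcripts of the members themselves, so their hairpins are shown here. Mature transcripts of the GENCODE annotation of GRCm38 were searched for windows of 27 bases with an unpaired C, an upper stem of 5 pairs and a loop of 6 bases that starts with CAGTG, with at least 4 pairs in the lower stem. The loop is in capitals, and each sequence is written 5′ to 3′ on the strand of the gene.
Fth1, 5′ UTR, chr19:9982733-9982759, plus strand: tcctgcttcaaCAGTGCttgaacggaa
Ftl1, 5′ UTR, chr7:45459780-45459806, minus strand: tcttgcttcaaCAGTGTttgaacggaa
Slc40a1, 5′ UTR, chr1:45925466-45925492, minus strand: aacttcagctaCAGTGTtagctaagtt
Tfrc, 3′ UTR, chr16:32631220-32631246, plus strand: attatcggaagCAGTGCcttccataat
Tfrc, 3′ UTR, chr16:32631599-32631625, plus strand: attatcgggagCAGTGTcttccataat
Tfrc, 3′ UTR, chr16:32631664-32631690, plus strand: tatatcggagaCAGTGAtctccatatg
Tfrc, 3′ UTR, chr16:32631711-32631737, plus strand: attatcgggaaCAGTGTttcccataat
The windows of both ferritin chains and of Slc40a1 lie before the coding sequence, and the 4 windows of Tfrc lie after it. Of 21718 genes with an annotated UTR, 17 (0.0783%) held such a window, among them Alas2, the erythroid enzyme that starts heme synthesis, and the ferritin light chain copy Ftl1-ps1. No window of this pattern was found in Slc11a2, Hmox1 or Slc11a1. Hairpins with another loop, or with a bulge in the upper stem, were not searched for. The search therefore does not show that these genes lack an iron-responsive element, or that Tfrc holds no further one.

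Of the libraries, 10 held colon tumor cells and 3 held adjacent mucosa, from 3 C57BL/6J mice of genotype ApcMin/+; p16cis/cis, which carry a truncated Apc allele together with an engineered p16 allele whose promoter becomes methylated. All 3 mice were on the supplemented diet, with added folic acid, vitamin B12, betaine and choline, so neither diet nor genotype is compared here. By the animal codes in the labels, mouse A (24 weeks) gave tumors 5 to 8 and mucosa 2, mouse B (23 weeks) gave tumors 9 and 10 and mucosa 3, and mouse C (20 weeks) gave tumors 1 to 4 and mucosa 1. Mucosa was dissociated with EDTA and TrypLE and tumors with an enzyme kit, so the dissociation cannot be told apart from the tissue, and tumors of 1 mouse are not separate animals. The adjacent mucosa carries the same alleles as the tumors and is no wild-type control.

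Per library, 57221300 to 93157039 unique molecular identifiers (UMIs) were counted in tumors and 84883382 to 116133079 in mucosa, and 109910 cells in 37 clusters were retained of 137591 barcodes. Cell classes were rebuilt from marker genes and are therefore named with the ending -like. A level is given as UMIs of the gene per 1000000 UMIs (CPM) of the cells named, summed per library where a library held at least 20 such cells. These are counts of 3′ ends and were not divided by gene length. Differences between tissues are log2 fold changes with their SE and Benjamini-Hochberg adjusted p from edgeR's quasi-likelihood test across all genes, with libraries as samples. The labels name 7 of the 13 libraries as female, but in each library the Y-linked genes lay between 104 and 129 CPM and Xist did not exceed 0.122 CPM, so sex was not used. Libraries of a pair shared 9 to 35 cell barcodes, at most 0.359% of the smaller library.

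In the sums over all cells, 4 members rose in tumors, 1 fell and 2 did not pass the test, where 70.8% of the 17606 genes tested passed it, 36.5% higher and 34.3% lower. The phagosome transporter Slc11a1 lay at 49.1 to 79.8 CPM in tumors (median 55.5) and at 0.359, 0.446 and 0.561 CPM in the mucosa samples, a log2 fold change of 7.09 ± 0.29 (adjusted p = 1.1e-09). Hmox1 lay at 58.3 to 222 CPM (median 145) against 1.79 to 3.20 CPM, a log2 fold change of 5.94 ± 0.51 (adjusted p = 3.3e-07). For neither gene did any tumor overlap the mucosa range, as was so for 53.7% of genes.

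The ferritin heavy chain Fth1, which oxidizes iron as it enters the shell, rose too. Its level was 9189 to 18652 CPM (median 16027) against 2454 to 3902 CPM in mucosa, a log2 fold change of 2.20 ± 0.27 (adjusted p = 7.7e-06). The light chain Ftl1 rose less, from 1496, 2128 and 2632 CPM in mucosa to 2556 to 4209 CPM in tumors (median 3696), by 0.79 ± 0.21 on the log2 scale (adjusted p = 0.0037). The ranges of Ftl1 overlapped, yet Ftl1 was higher in 10 of 10 tumors than in the same animal's mucosa.

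The transferrin receptor Tfrc moved the other way. It lay at 71.3 to 143 CPM in tumors (median 87.9) and at 254, 255 and 372 CPM in mucosa, with a log2 fold change of -1.60 ± 0.17 (adjusted p = 1.7e-06), and every tumor was below every mucosa sample. Slc11a2 did not pass the test (0.19 ± 0.11, adjusted p = 0.12), with 12.1 to 16.1 CPM against 10.3 to 14.2 CPM. Slc40a1 did not pass it either (-0.21 ± 0.29, adjusted p = 0.52), with 12.8 to 22.4 CPM against 7.40, 26.5 and 27.5 CPM, but without the low mucosa sample of mouse C it passed at -0.62 (adjusted p = 0.0044). In such sums, more cells of a type and more RNA per cell cannot be told apart, and the tissues differed widely in their cells: epithelial cells held 90.9% of all UMIs in mucosa and 43.7% in tumors (means over mice), while macrophage- or monocyte-like cells held 0.250% and 22.6%, and neutrophil-like cells 0.0331% and 11.8%.

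Sorting the UMIs of each gene by cell showed which cells carried these sums. In tumors, macrophage- or monocyte-like cells held 66.7% ± 2.3 of the Slc11a1 UMIs, 76.7% ± 5.5 of the Hmox1 UMIs, 58.3% ± 2.3 of the Fth1 UMIs and 49.5% ± 2.4 of the Ftl1 UMIs (mean ± SD over 3 mice). Neutrophil-like cells added 31.1% ± 3.0 for Slc11a1 and 26.98% ± 1.5 for Fth1. In mucosa, epithelial cells held 93.0% of the Fth1 and 93.6% of the Ftl1 UMIs.

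The cells that held Slc40a1 UMIs also differed between the tissues. In mucosa, 99.3% of its UMIs were epithelial, and absorptive epithelial-like cells alone held 63.3%. In tumors, neutrophil-like cells held 51.7% ± 10.3, epithelial cells 34.6% ± 10.0 and C1q+ macrophage-like cells 12.8% ± 1.1. Tfrc stayed epithelial, with 98.9% of its UMIs there in mucosa and 89.9% in tumors. Slc11a2 had 93.5% of its UMIs in epithelial cells in mucosa and 64.8% in tumors, where macrophage- or monocyte-like cells held a further 23.5%.

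**Figure D1:**
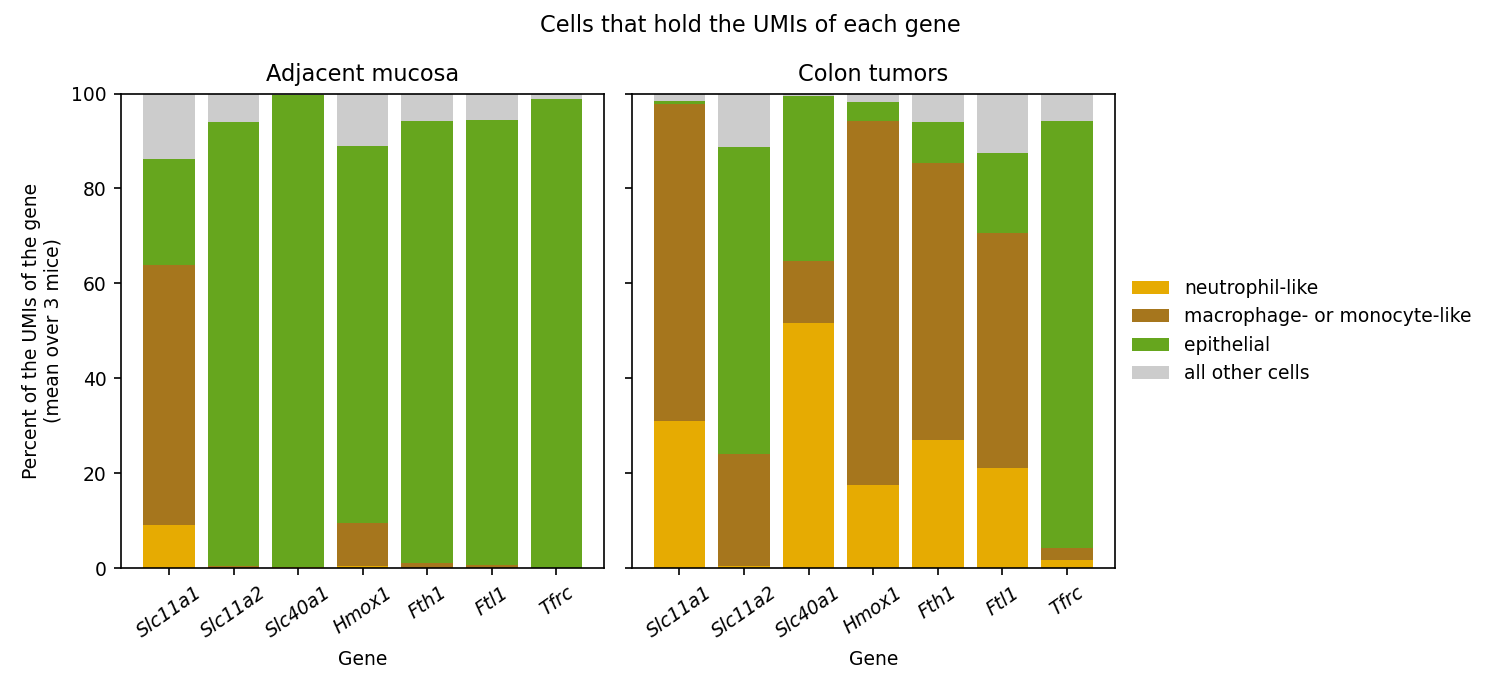
Percent of the UMIs of each gene (vertical axis, mean over 3 mice) held by neutrophil-like, macrophage- or monocyte-like, epithelial and all other cells, in adjacent mucosa (left) and colon tumors (right). In tumors the green epithelial part shrinks to 8.67% for Fth1 and 3.95% for Hmox1 but stays at 89.9% for Tfrc.

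Across the 16 classes with enough cells in tumors, the ferritin genes were highest in myeloid cells. Fth1 was at 55672 ± 5628 CPM in Spp1+ macrophage-like, 40361 ± 3686 in C1q+ macrophage-like, 36247 ± 5369 in neutrophil-like and 16400 ± 546 CPM in Ly6c+ monocyte-like cells (mean ± SD over 3 mice), and lowest in plasma-like cells at 615 ± 17 CPM. Spp1+ exceeded C1q+ macrophage-like cells in 10 of 10 tumors, while C1q+ macrophage-like exceeded neutrophil-like cells in only 7 of 10. Ftl1 had another leader: C1q+ macrophage-like cells were at 10960 ± 325 CPM, above Spp1+ macrophage-like cells (6828 ± 604 CPM) in 10 of 10 tumors. Spp1+ macrophage-like and neutrophil-like cells (6425 ± 1212 CPM) did not differ beyond their spread in Ftl1, with the former higher in 6 of 10 tumors.

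Slc11a1, known for limiting microbes that live in macrophages by drawing metals out of the phagosome, was high in 4 classes of the tumors. It was at 228 ± 25 CPM in Spp1+ macrophage-like, 163 ± 19 in neutrophil-like, 161 ± 34 in C1q+ macrophage-like and 146 ± 9 CPM in Ly6c+ monocyte-like cells, and at 7.42 CPM or less in the other 12. The neutrophil-like and C1q+ macrophage-like levels did not differ beyond their spread (5 of 10 tumors higher in the former). At 1000 UMIs per cell, 14.2% of neutrophil-like and 19.7% of Spp1+ macrophage-like cells held a Slc11a1 UMI, against 0.191% of conventional T-like cells (medians of the tumors). Without thinning, these shares were 33.3%, 63.3% and 0.882%, at median depths of 2612, 6453 and 3483 UMIs, and thinning left out 648, 60 and 168 shallower cells.

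Hmox1, the enzyme that opens the heme ring and frees its iron, was led by the C1q+ macrophage-like class (894 ± 462 CPM), ahead of Spp1+ macrophage-like (482 ± 80), Ly6c+ monocyte-like (212 ± 3) and neutrophil-like cells (211 ± 64 CPM). Its level in C1q+ macrophage-like cells ranged from 384 CPM in tumor 3 to 982 CPM in tumor 8, with tumor 10 apart at 1921 CPM. C1q+ exceeded Spp1+ macrophage-like cells in 9 of 10 tumors (medians 696 and 345 CPM), though their means lay within the wide spread of the former over mice. Ly6c+ monocyte-like and neutrophil-like cells did not differ beyond their spread, with the former higher in 3 of 10 tumors. The other 12 classes were at 42.9 CPM or less.

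The exporter Slc40a1 followed none of these orders. Neutrophil-like cells led with 75.8 ± 18.5 CPM, and absorptive epithelial-like cells followed with 50.5 ± 39.2 CPM, a class that ranged from 12.8 CPM in tumor 8 to 167 CPM in tumor 3. Other epithelial cells, the epithelial clusters that took no class name, were at 39.1 ± 5.9, C1q+ macrophage-like cells at 30.3 ± 2.8 and goblet-like cells at 17.8 ± 0.7 CPM. Spp1+ macrophage-like and Ly6c+ monocyte-like cells were at 0.406 and 0.204 CPM, so of the macrophage- and monocyte-like classes only the C1q+ one held ferroportin transcripts above 1 CPM. At 1000 UMIs per cell, 7.30% of neutrophil-like cells and 2.35% of C1q+ macrophage-like cells held a Slc40a1 UMI, against 0.034% of Spp1+ macrophage-like and 0.007% of conventional T-like cells. The unthinned shares were 17.7%, 13.98%, 0.168% and 0.072%.

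Tfrc was highest in epithelial cells: other epithelial cells were at 366 ± 31, goblet-like at 344 ± 31, Paneth-like at 234 ± 21 and tumor epithelial-like cells at 161 ± 2 CPM. Other epithelial and goblet-like cells did not differ beyond their spread (6 of 9 tumors higher in the former), and goblet-like exceeded Paneth-like cells in 8 of 9 tumors. Conventional T-like cells were at 49.4 ± 3.2 CPM, and the macrophage- and monocyte-like classes at 13.2 CPM or less. Slc11a2 was at 22.4 CPM or less in every class, with tumor epithelial-like cells at 22.4 ± 2.2, Paneth-like at 20.0 ± 3.1 and C1q+ macrophage-like cells at 19.4 ± 5.0 CPM. Those neighbors did not differ beyond their spread. In neutrophil-like cells, Slc11a2 was at 0.605 ± 0.146 CPM.

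**Figure D2:**
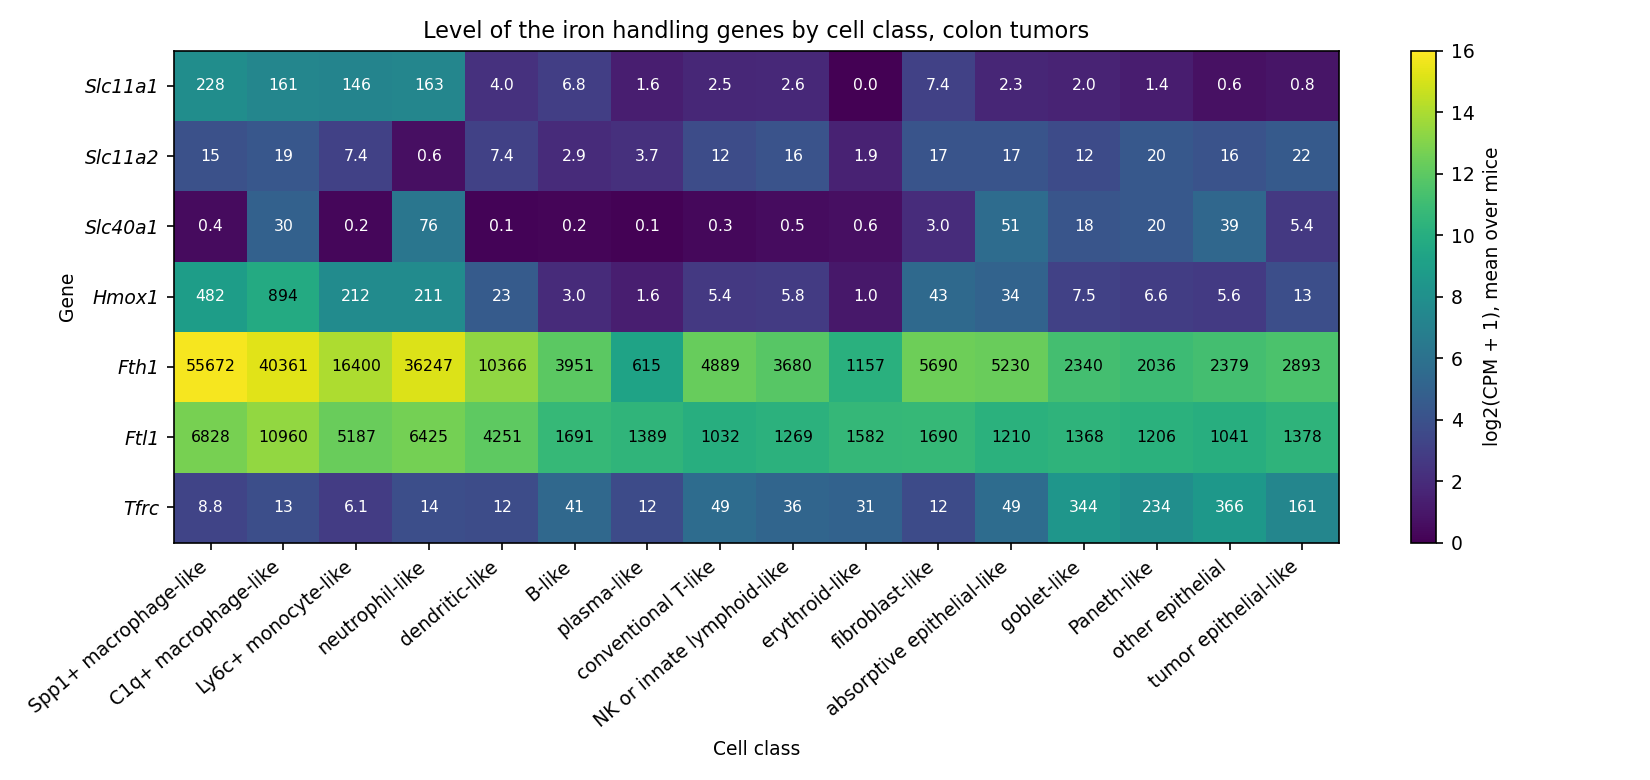
Level of each gene (rows) in the 16 cell classes of the tumors (columns). Each cell gives the level in CPM as the mean over mice, and its color the same value as log2(CPM + 1). The left 4 columns carry the high Slc11a1, Hmox1, Fth1 and Ftl1 levels, the right columns the high Tfrc levels, and Slc40a1 is high in parts of both.

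Classes held clusters that differed in these genes, compared here within each tumor as a description. Neutrophil-like cells formed cluster 1, led by Retnlg, S100a9 and Ngp, with 24745 tumor cells, and cluster 17, led by Ccl3, Csf1 and Fnip2, with 2203 tumor cells. Fth1 was at 33527 ± 4424 CPM in cluster 1 and 82806 ± 11831 CPM in cluster 17, Ftl1 at 4377 ± 532 and 41837 ± 2928 CPM, and Hmox1 at 165 ± 83 and 1027 ± 45 CPM. Cluster 17 was the higher in 10 of 10 tumors for each of these and for Tfrc, with median ratios of 2.56, 9.72, 7.45 and 5.06. For Slc40a1 (6 of 10 tumors) and Slc11a1 (6 of 10), the clusters did not differ beyond their spread. Cluster 17 matched the neutrophil markers less closely, with a mean log2 fold of 1.69 against 7.62 in cluster 1. Its cells were shallower, at 0.44 times the median of their libraries against 0.60 times, and 1 library held 30.7% of them. The part of these in the differences was not tested.

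Among Spp1+ macrophage-like cells, cluster 6 exceeded cluster 5 in Slc11a1 (median ratio 2.24) and Hmox1 (2.25) in 10 of 10 tumors and in Fth1 (1.57) in 9 of 10. It was below cluster 5 in Ftl1 (0.825) in 9 of 10 tumors, so that the ferritin chains differed in opposite directions, and in Tfrc (0.683) in each tumor. Among tumor epithelial-like cells, cluster 8 held 4854 ± 1084 CPM of Fth1 and cluster 2 held 1165 ± 72 CPM, and cluster 8 was higher in 10 of 10 tumors in both Fth1 (median ratio 4.16) and Ftl1 (1.63). Slc11a2 and Tfrc did not separate these epithelial clusters (5 and 4 of 10 tumors higher in cluster 8). The depth of the cells moved with that contrast, at 4.92 times the median of their libraries in cluster 8 and 1.62 times in cluster 2, and its part in the Fth1 difference was not tested.

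Within the epithelial cells, 3 members rose in tumors and 4 fell, where 63.7% of the 15523 genes tested passed, 33.5% higher and 30.2% lower. Slc11a2 rose from 10.3, 13.5 and 15.1 CPM in mucosa to 17.1 to 25.3 CPM in tumors (median 21.8), by 0.46 ± 0.13 on the log2 scale (adjusted p = 0.0056; 0.0503 without mucosa 2). Tfrc fell from 266, 274 and 425 CPM to 166 to 236 CPM (median 192), with a log2 fold change of -0.96 ± 0.15 (adjusted p = 0.00012). Neither gene's ranges overlapped, as was so for 45.1% of genes tested.

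Of the ferritin chains, Ftl1 was lower in tumor epithelium, against its rise in the whole tissue, while the lower call of Fth1 depended on the processing. Ftl1 fell from 1559, 2188 and 2688 CPM to 1141 to 1625 CPM (median 1367), with a log2 fold change of -0.92 ± 0.14 (adjusted p = 8.4e-05). All 10 tumors were below the mucosa of their own mouse, although the ranges overlapped at 1 tumor. Fth1 passed the test only narrowly, with 2366 to 3999 CPM in tumors (median 2858) and 2500, 3981 and 3988 CPM in mucosa (log2 fold change -0.46 ± 0.17, adjusted p = 0.03), and 4 of 10 tumors lay above their own mucosa. Scaled to library size alone, its value was -0.21 and it did not pass (adjusted p = 0.31), a scaling that shifted the median of all genes by 0.25 and gave 6869 higher and 3155 lower genes in place of 5205 and 4684. Without mucosa 2 or 3 it did not pass either (-0.36 each, adjusted p = 0.14 and 0.152).

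Slc40a1 was at 5.63 to 23.8 CPM in tumor epithelium (median 13.3) and at 8.48, 28.7 and 29.0 CPM in mucosa, a log2 fold change of -0.97 ± 0.37 (adjusted p = 0.035). Its mucosa sample of mouse C was inside the tumor range. With the mouse as a block, Slc40a1 in all epithelial cells was at -0.93 (adjusted p = 0.0695). Without mucosa 2 or 3 or tumor 5 or 9 it did not pass either (adjusted p = 0.178, 0.171, 0.0507 and 0.0523). In a narrower set, without the tumor epithelial-like and Paneth-like clusters, its direction turned, at 0.86 ± 0.39 (adjusted p = 0.095). The clusters left there still differed between the tissues: cluster 12 held 29 tumor and 3612 mucosa cells, and cluster 15 held 1886 and 688. In that narrower set, where 37.0% of genes passed, Ftl1 (-0.85, adjusted p = 0.00037) and Hmox1 (2.19, adjusted p = 0.0045) kept their calls. Slc11a1, a myeloid gene in these tumors, kept its call too, at 3.42 against 2.63 in all epithelial cells. The part of myeloid RNA in the Hmox1 value was not tested. Fth1 did not pass in the narrower set. Tfrc was at -0.01 there (adjusted p = 0.98) and Slc11a2 at 0.33 (adjusted p = 0.087). In cluster 15 alone, with 1886 tumor and 688 mucosa cells, 21.6% of genes passed, among them Hmox1 (1.23, adjusted p = 0.03) and Tfrc (-0.46, adjusted p = 0.035). The other 4 members tested there did not pass, and Ftl1 lost its call (-0.34, adjusted p = 0.0639), beside Fth1 (-0.34, adjusted p = 0.193), Slc40a1 (0.62, adjusted p = 0.121) and Slc11a2 (0.10, adjusted p = 0.716).

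**Figure D3:**
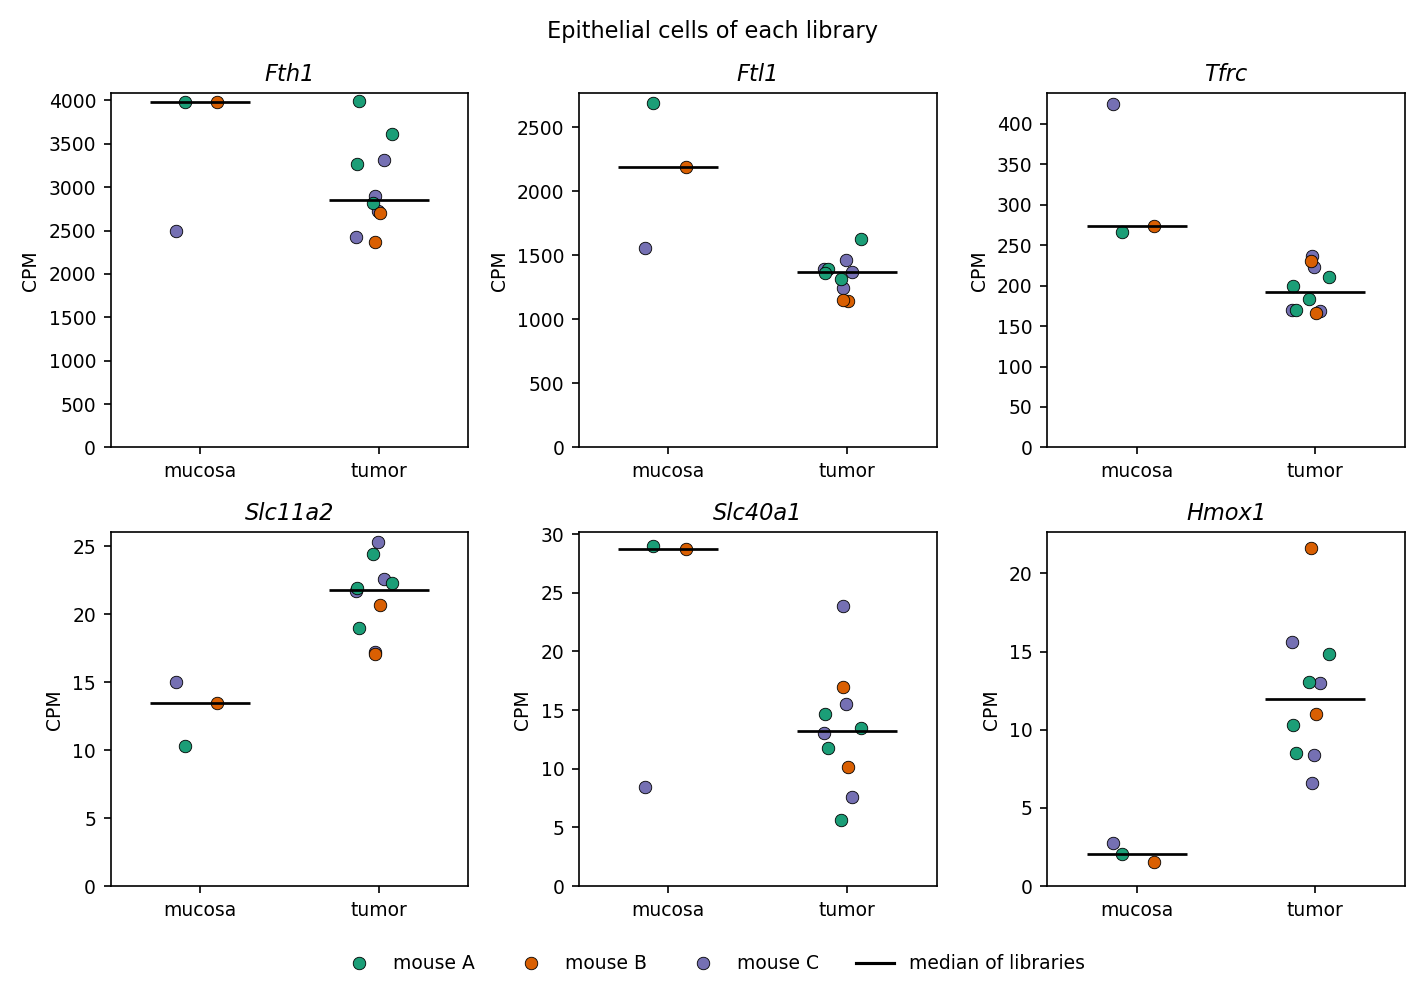
Level in CPM (vertical axes from 0) of 6 genes in the summed epithelial cells of each library, by tissue. Points are libraries colored by mouse, and bars are medians. Tumors lie above the mucosa for Slc11a2 and Hmox1 and below it for Tfrc, while the points of Fth1 and Slc40a1 overlap.

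Hmox1 rose in the epithelial cells from 1.53, 2.03 and 2.79 CPM to 6.59 to 21.6 CPM (median 11.98), by 2.30 ± 0.36 on the log2 scale (adjusted p = 0.00011), with no overlap. RNA of other cells rose in the same sums: the summed level of 8 neutrophil and macrophage genes (S100a8, S100a9, Lyz2, C1qa, C1qb, C1qc, Apoe and Spp1) was 181 to 530 CPM in tumor epithelium and 8.65 to 23.9 CPM in mucosa epithelium, with 7 of the 8 genes higher. Slc11a1 rose as well there, but to 1.71 CPM at most (2.63 ± 0.62, adjusted p = 0.0022). For each Slc11a1 UMI, tumors held 13.7 Hmox1 UMIs in epithelial cells, 16.01 in tumor epithelial-like and 20.7 in absorptive epithelial-like cells, against 1.41 to 4.59 in the 4 myeloid classes. The epithelial ratios rest on 253, 167 and 20 Slc11a1 UMIs, and the part of myeloid RNA in the Hmox1 level was not tested. UMIs were summed over the tumors for these ratios. The absorptive one therefore includes tumor 10, where Hmox1 was at 140.2 CPM in those cells (next tumor 22.6 CPM). Tumor 10 also had the highest Hmox1 in C1q+ macrophage-like cells, at 1921 CPM (next 982), where its Slc11a1 did not exceed 182 CPM. The summed myeloid range therefore does not give the myeloid ratio of that tumor. In goblet-like cells (22 Slc11a1 UMIs) the ratio was 2.68, inside the myeloid range, and Hmox1 did not pass the test there (0.83 ± 0.37, adjusted p = 0.15).

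Genes listed for a stress response to dissociation moved with the tissue too. Of these 15 genes, 13 were higher in tumor epithelium and none lower, and their summed level was 2684 to 5997 CPM in tumors and 1440 to 1649 CPM in mucosa. Whether dissociation or the tissue raised them cannot be told apart here, and their part in the member differences was not tested.

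Goblet-like cells, which secrete mucus, gave the clearest epithelial change of the exporter. Slc40a1 was at 2.18, 2.53 and 4.21 CPM in the mucosa samples and, in the 9 tumors with enough cells, at 8.19, 23.8, 23.4, 16.9, 22.4, 17.9, 20.9, 6.74 and 18.4 CPM (tumors 1 to 8 and 10). The lowest tumor was above the highest mucosa sample, and Slc40a1 rose by 2.83 ± 0.29 on the log2 scale (adjusted p = 3.5e-05), where 12.2% of 8671 genes passed and 10.5% did not overlap between tissues. It passed under each alternative in which it was tested. With library-size scaling it was 2.64, while the calls over all genes went from 694 higher and 363 lower to 464 and 1011. The class was made of different cells in the tissues: cluster 9 held 85.2% of the goblet-like cells of mucosa and 41.3% of those of tumors. Within cluster 9 alone, where 5.15% of genes passed, the value was 3.28 ± 0.23 (adjusted p = 8.9e-06). Only 6 tumors had enough cells of cluster 9, which held 229 tumor and 4122 mucosa cells. In cluster 24, which held 58.7% of the goblet-like cells of tumors, Slc40a1 did not pass the low-count filter, so no call is given. It was at 0 to 69.9 CPM there in 8 tumors and at 4.51 to 12.2 CPM in mucosa, and a rise within cluster 24 is not shown.

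Of the other members in goblet-like cells, Ftl1 was at 1177 to 1709 CPM in tumors and 1745 to 2722 CPM in mucosa (-0.51 ± 0.14, adjusted p = 0.029), which passed in neither cluster alone (adjusted p = 0.104 in cluster 9 and 0.137 in cluster 24, where 10.4% of genes passed). It was also lost without mucosa 2 (-0.36, adjusted p = 0.215), mucosa 3 (adjusted p = 0.0916), tumor 4 (adjusted p = 0.0502) or tumor 7 (adjusted p = 0.0528). Fth1 (-0.02), Slc11a2 (-0.10) and Tfrc (0.23) did not pass. The 8 neutrophil and macrophage genes summed to 52.2 to 1317 CPM in these tumor cells and to 2.84 to 15.5 CPM in mucosa, and 14 of 15 stress genes were higher. For each Slc11a1 UMI the goblet-like cells held 8.55 Slc40a1 UMIs, against 0.495 in neutrophil-like cells, the myeloid class richest in Slc40a1. The goblet-like ratio rests on 22 Slc11a1 UMIs. It was 38.5 in absorptive epithelial-like and 62.4 in other epithelial cells of the tumors. The part of RNA from other cells in the goblet-like Slc40a1 level was not tested.

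Absorptive epithelial-like cells, the class that takes up nutrients and water, held 4 members past the test of the 6 tested, where 39.5% of 8192 genes passed. Tfrc fell from 109, 121 and 175 CPM to 14.2 to 96.6 CPM (median 44.5), with no overlap, as was so for 24.5% of genes, and a log2 fold change of -1.28 ± 0.34 (adjusted p = 0.0074). Hmox1 rose from 1.12 to 1.68 CPM in mucosa to 8.57 to 22.6 CPM in 9 tumors, with tumor 10 far above at 140.2 CPM (4.27 ± 0.93, adjusted p = 0.0017), and without tumor 10 the value was 3.15. Red cell RNA stood apart in that library too: 5 erythroid marker genes summed to 1244 CPM in the absorptive epithelial-like cells of tumor 10, to 1.66 to 66.7 CPM in those of the other 9 tumors, and to 3333, 38.2 and 287.6 CPM in mucosa 1 to 3. Its part in the Hmox1 level was not tested. Slc11a2 did not pass (0.67 ± 0.26, adjusted p = 0.054), but did with the mouse as a block (0.68, adjusted p = 0.0304). Most mucosa cells of this class were of cluster 18, which held 1 tumor cell, so cluster 19, present in both tissues, was also tested alone. There, where 34.3% of genes passed, Tfrc was at -1.44 ± 0.35 (adjusted p = 0.0051) and Hmox1 at 3.82 ± 0.96 (adjusted p = 0.0061), but Fth1 (-0.27, adjusted p = 0.30) and Ftl1 (-0.11, adjusted p = 0.75) lost the calls they had in the class as a whole (-0.57 and -0.73). Slc40a1 did not pass in the class (-0.72 ± 0.55, adjusted p = 0.32) or in cluster 19 (-0.08). The 8 neutrophil and macrophage genes summed to 704 to 3543 CPM in these tumor cells and 53.1 to 109 CPM in mucosa, and 11 of 15 stress genes were higher. Their part in the member differences was not tested.

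Among lymphocytes, the heavy chain of ferritin was called higher in conventional T-like cells, and also in the B-like and NK or innate lymphoid-like cells described below. Intraepithelial T-like cells were not fitted, since only 1 tumor held enough of them. In conventional T-like cells Fth1 was at 1758, 2226 and 1983 CPM in mucosa 1 to 3 and at 3832 to 5855 CPM in tumors (median 4969), a rise of 1.42 ± 0.18 on the log2 scale (adjusted p = 1e-05) without overlap, where 19.2% of 9291 genes passed, 10.6% higher, and 18.2% did not overlap. The other 4 members tested did not pass: Ftl1 was at 0.20, Hmox1 at 0.38, Slc11a2 at -0.14 and Tfrc at 0.08 on the log2 scale. Within cluster 7, the larger T-like cluster, Fth1 was at 5592 ± 490 CPM in tumors and 2391 CPM in mucosa. The 8 neutrophil and macrophage genes summed to 168 to 832 CPM in tumor T-like cells and 17.6 to 48.7 CPM in mucosa, 13 of 15 stress genes were higher in tumors, and their part in the Fth1 rise was not tested. Without T-like mucosa sample 1, 2 or 3, the value stayed between 1.41 and 1.49. With library-size scaling it was 1.28, while the calls over all genes went from 982 higher and 798 lower to 717 and 1217.

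B-like cells had 3 members tested, and all 3 rose, where 40.2% of 5621 genes passed, 18.4% higher. Tfrc went from 17.4, 23.3 and 14.5 CPM to 29.0 to 66.9 CPM (median 38.3; 1.20 ± 0.26, adjusted p = 0.00078). Ftl1 went from 887 to 1157 CPM to 1287 to 1955 CPM (0.77 ± 0.17, adjusted p = 0.00077), and Fth1 from 2617 to 2798 CPM to 3408 to 5137 CPM (0.55 ± 0.17, adjusted p = 0.011). No range overlapped, as was so for 18.1% of genes, and all 3 passed under each alternative. Here 13 of 15 stress genes were higher as well, with summed levels of 5069 to 10753 CPM in tumors and 1866 to 2359 CPM in mucosa. The 8 neutrophil and macrophage genes summed to 1519 to 3714 against 1091 to 1765 CPM.

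In NK or innate lymphoid-like cells, where 2.25% of 7833 genes passed, 1.80% higher, Fth1 (1.17 ± 0.27, adjusted p = 0.021) and Ftl1 (1.20 ± 0.24, adjusted p = 0.0069) rose and Slc11a2 and Tfrc did not pass. The class is cluster 16, with Klrb1c, Ncr1 and Cd8b1 among its leading genes. Its mean log2 fold was 3.36 for the markers of its name and 4.06 for those of intraepithelial T cells, so T cells may be among them. The calls of Fth1 and Ftl1 rest on mucosa samples of 2 mice. Without mucosa 1 both were lost (adjusted p = 0.276 and 0.263), and without mucosa 3 that of Fth1 was (adjusted p = 0.13), in fits where the lone mucosa sample is assumed to vary as the tumors do. With library-size scaling neither passed (adjusted p = 0.0725 and 0.0687), and 46 higher and 123 lower genes were called in place of 141 and 35. In plasma-like cells, where 31.6% of genes passed, Ftl1 was called higher (0.43 ± 0.13, adjusted p = 0.02), yet its CPM was lower in all 10 tumors than in their own mucosa (1131 to 1579 against 1510 to 1791 CPM), and with library-size scaling its value was -0.27, so no direction is given (320 higher and 4763 lower genes in place of 1444 and 1513). Slc11a2 did not pass there (1.01, adjusted p = 0.094) but did with the mouse as a block (1.12, adjusted p = 0.0365). In dendritic-like cells, where 3.10% of genes passed, edgeR called 0 of 6 members, 2 had an unadjusted p under 0.05, and DESeq2 called 0. In erythroid-like cells, where 0.00% of 1066 genes passed, it called 0 of 3, none with an unadjusted p under 0.05, and DESeq2 called 0. The erythroid levels were 1157 CPM of Fth1 and 1582 CPM of Ftl1 in the 4 tumors with enough such cells, all of mouse C.

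**Figure D4:**
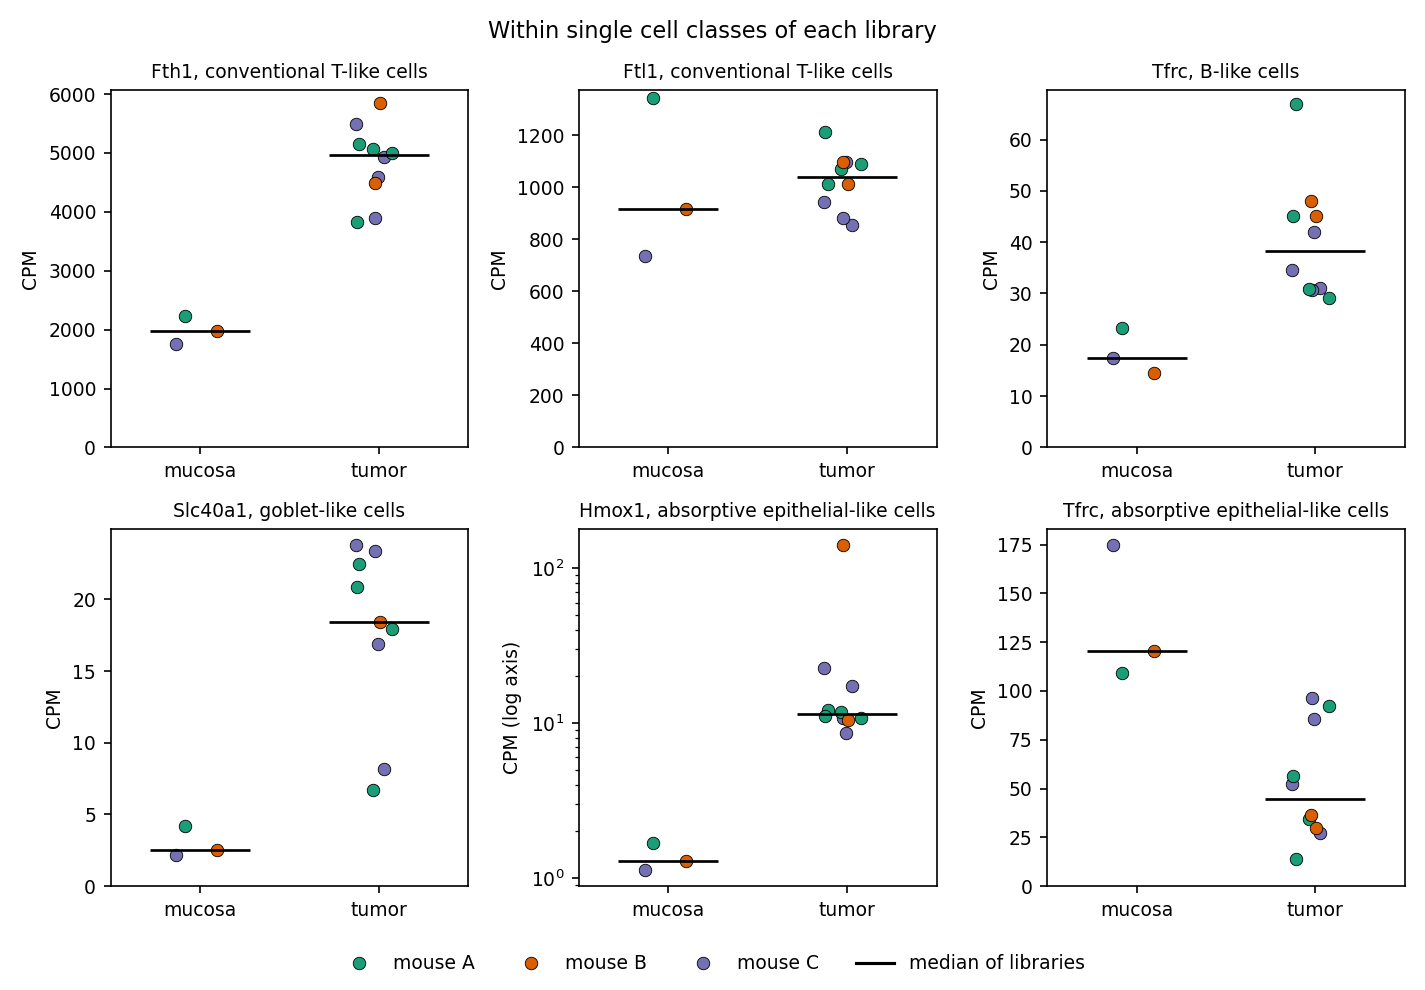
Level in CPM in the cells of single classes of each library, by tissue (the Hmox1 axis is logarithmic, the others start at 0). Points are libraries colored by mouse, and bars are medians. The panels show the rise of Fth1 but not Ftl1 in conventional T-like cells, of Tfrc in B-like and Slc40a1 in goblet-like cells, and tumor 10 apart from the other tumors in absorptive epithelial-like Hmox1 at 140.2 CPM.

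Whether the tissue difference itself differed between epithelial and conventional T-like cells was tested with an exact permutation test that reassigns the mucosa label among the libraries of a mouse (two-sided, 75 assignments, smallest possible p 0.0133), on log2(CPM + 1), adjusted over the 7 members. The tumor minus mucosa difference of Fth1 was -0.24 in epithelial and 1.29 in T-like cells (difference -1.53), that of Ftl1 -0.68 and 0.09 (difference -0.77) and that of Slc11a2 0.65 and -0.23 (difference 0.88), each with an exact p of 0.0133, the smallest possible, and an adjusted p of 0.0311. For Tfrc the difference was -0.71 (exact permutation p = 0.04, adjusted p = 0.07), and Hmox1, Slc11a1 and Slc40a1 did not pass. The test was run on the members only, on CPM without TMM, so no share over all genes stands beside it. In edgeR, leaving out TMM shifted the median gene by 0.25 in epithelial and by -0.11 in T-like cells. The epithelial log2 fold change of Slc11a2 was 0.46 with TMM and 0.10 in cluster 15 alone.

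The ratio of heavy to light chain transcripts varied widely between classes. In tumors, Spp1+ macrophage-like cells held 8.14 Fth1 UMIs for each Ftl1 UMI, neutrophil-like cells 5.70, conventional T-like cells 4.72, C1q+ macrophage-like cells 3.65, tumor epithelial-like cells 2.03 and plasma-like cells 0.444 (means over mice on the log scale). Plasma-like cells held more light than heavy chain UMIs in 10 of 10 tumors. Erythroid-like cells had enough cells only in tumors 1 to 4, all of mouse C, where the ratio was 0.740, 0.949, 0.720 and 0.546, below 1 in each.

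In 7 sets of cells the ratio was compared between the tissues by the same exact two-sided permutation test, adjusted over the 7. In all cells it was 4.42 in tumors and 1.64 in mucosa, a log2 difference of 1.43 (exact p = 0.0133, adjusted p = 0.0233). That sum and the sum of all epithelial cells below mix classes whose shares differ between the tissues, so neither shows a shift within a class. In conventional T-like cells the ratio was 4.72 and 2.05, a log2 difference of 1.20 (exact p = 0.0133, adjusted p = 0.0233). In other epithelial cells it was 2.26 and 1.26, a log2 difference of 0.85, and in all epithelial cells 2.22 and 1.63, a log2 difference of 0.44, each with the same exact p of 0.0133 and adjusted p of 0.0233. The other epithelial cells came from different clusters in the tissues, cluster 15 holding 98.4% of them in tumors and 12.6% in mucosa. In cluster 15 alone, the log2 fold changes of Fth1 and Ftl1 given above were alike and neither passed. The ratio was not tested there, so a shift within the cells shared by both tissues is not shown.

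A higher ratio in tumors was not seen in every set. In B-like cells the log2 difference was -0.23 (exact permutation p = 0.2, adjusted p = 0.233) and in absorptive epithelial-like cells 0.09 (exact permutation p = 0.653, adjusted p = 0.653). In plasma-like cells it was -0.22 (exact permutation p = 0.0267, adjusted p = 0.0373), a value that turned to 0.46 when doublets were kept.

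**Figure D5:**
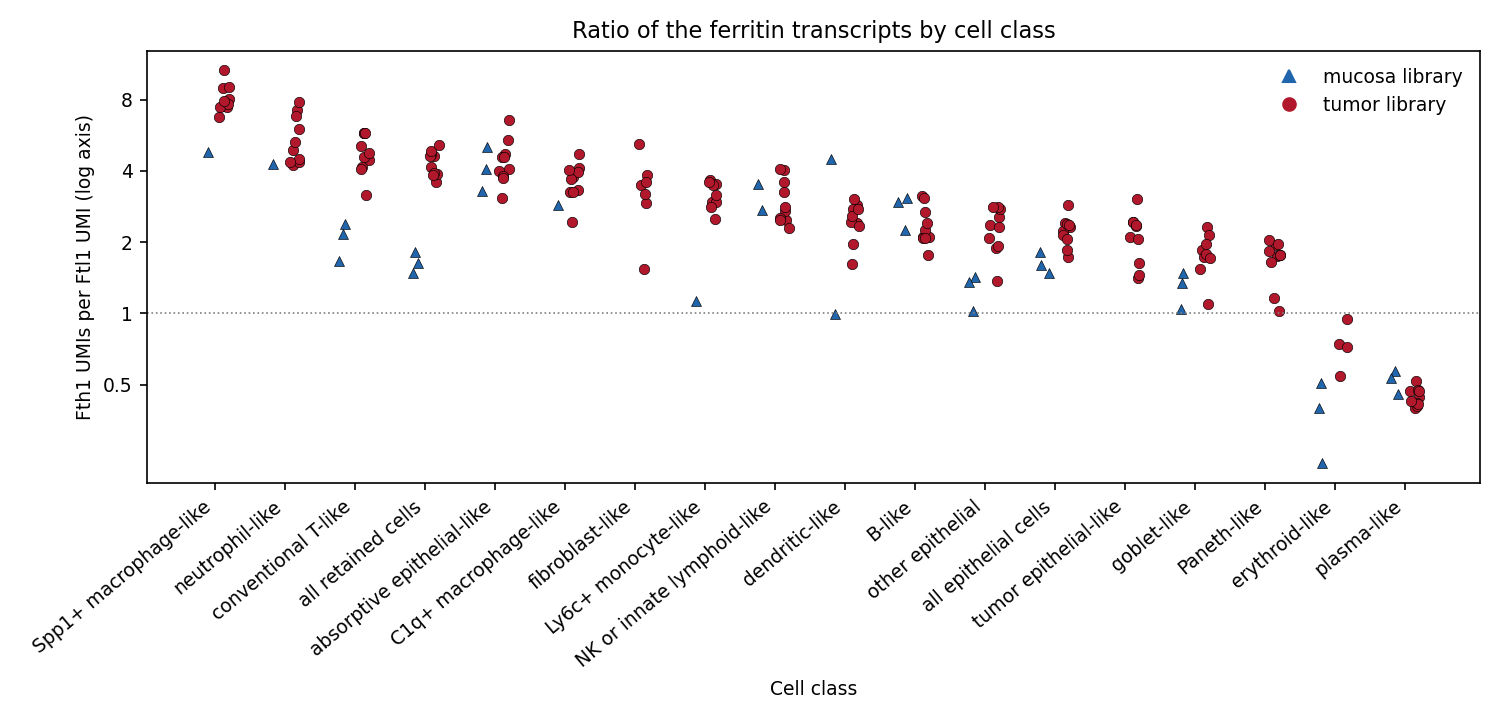
Fth1 UMIs per Ftl1 UMI (log axis) in the cells of each class with at least 20 cells in a library. Triangles are mucosa libraries and circles tumor libraries, and the dotted line marks equal counts. The triangles lie below the circles in conventional T-like cells, overlap with the lowest circle in other epithelial cells and lie among the circles in absorptive epithelial-like cells.

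Over the 16 classes of the tumors, the members fell into few patterns, given as Pearson correlations of log2(CPM + 1) with no test, since the classes come from the same libraries. Slc11a1 and Hmox1 (r = 0.91), Hmox1 and Fth1 (0.93) and Fth1 and Ftl1 (0.86) went together, Tfrc ran against Ftl1 (-0.67) and Slc11a1 (-0.65), and Slc40a1 was close to none of them (0.05 to 0.44). Among 9741 genes with at least 20 CPM in some class, the genes most like Slc11a1 were C5ar1, a receptor for the complement fragment C5a (r = 0.98), Sh2b2 and Clec4d (0.97 each). Those most like Fth1 were the neutrophil-attracting chemokines Cxcl2 (0.94) and Cxcl3 (0.94) and Lst1 (0.94), and those most like Ftl1 were Cd300c2, Fcgr4 and Clec4a2 (0.97 to 0.98). For Hmox1 they were Ftl1-ps1, Fnip2 and Pla2g7 (0.93 to 0.94), for Tfrc Bdh1, Map7 and Rnf186 (0.93 to 0.95), for Slc11a2 Tbcd, Lgals3bp and Ascc2 (0.93 to 0.94), and for Slc40a1 Tbc1d2, Dhrs9 and Scnn1a (0.84 to 0.86).

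Ftl1-ps1 is a near-identical copy of the light chain, so its reads and those of Ftl1 may be exchanged. Its level was 9.21 to 24.5 CPM in tumors and 5.05 to 18.5 CPM in mucosa over all cells, small beside Ftl1, and in epithelial cells it fell as Ftl1 did (-1.02 ± 0.30, adjusted p = 0.0087). Fthl17a to Fthl17f, ferritin heavy chain-like genes, were at 0.0309 CPM or less in each library.

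A list of 58 further genes of iron and heme handling put the members in context. In epithelial cells 15 rose and 20 fell of 49 tested, 71.4% against 63.7% of all genes, with a median log2 fold change of -0.13 against 0.04 over all genes. In all cells 25 rose and 16 fell of 52 tested, 78.8% against 70.8%, with a median of 0.35 against 0.03.

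The uptake genes of the epithelium were mixed. Trf, which encodes transferrin, was 2.40 ± 0.57 higher on the log2 scale in tumors (36.3 to 124 against 2.30 to 17.8 CPM), and its highest class was the C1q+ macrophage-like one at 771 CPM. Of the Steap metal reductases, Steap4 rose by 2.45 ± 0.34 and was highest in neutrophil-like cells (173 CPM), while Steap3, the endosomal ferrireductase, fell by 1.81 ± 0.32. Of the oxidases that load iron onto transferrin, Heph, which works beside ferroportin in the gut, fell by 1.14 ± 0.24, and Cp, at 9.14 CPM at most, rose by 6.89 ± 0.65 (0 to 0.0845 CPM in mucosa). That fold rests on mucosa levels near 0.

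Genes of the hepcidin axis, the hormone that makes ferroportin degrade, were called higher in 4 and lower in 1 of 5 tested. Of all genes tested in the epithelium, 63.7% were called. Hamp lay at 2.74 to 21.01 CPM in tumor epithelium and 0 to 0.615 CPM in mucosa (4.50 ± 0.76, adjusted p = 0.00018), and its relative Hamp2 at 0.540 to 64.0 against 0.824 to 1.19 CPM (4.25 ± 1.01, adjusted p = 0.0023). Both were highest in Paneth-like cells, at 38.0 and 436 CPM, a class with 952 tumor cells and 22 mucosa cells. Without the tumor epithelial-like and Paneth-like clusters, edgeR called 0 of the 3 genes of the axis that could be tested, with Hamp at 2.47 (adjusted p = 0.111), Hamp2 at 1.17 (adjusted p = 0.228) and Hfe at 0.03 (adjusted p = 0.909), none with an unadjusted p under 0.05. Tmprss6, a protease that restrains hepcidin, rose by 5.22 ± 1.45 from 0.184 CPM or less, and Hfe fell by 0.94 ± 0.24 and was highest in dendritic-like cells (76.9 CPM).

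Of the 3 iron sensors tested in the epithelium, 1 fell (33.3%, against 63.7% of all genes called). Aco1, the enzyme that turns into iron regulatory protein 1, fell by 0.52 ± 0.11, while Ireb2 and Fbxl5 did not pass. Fbxl5, the iron-sensing ligase subunit that marks iron regulatory proteins for degradation, was highest in neutrophil-like cells at 654 CPM, against 136 CPM in the next class. Of 9 heme synthesis genes 5 fell and 1 rose (66.7%, near the 63.7% of all genes). Alas1 (-1.01 ± 0.17) and Cpox (-0.48 ± 0.10) were among those that fell, and Alas2 and Fech were highest in erythroid-like cells at 1204 and 187 CPM. Of heme breakdown and transport, Blvrb, a biliverdin reductase, rose by 0.97 ± 0.18 and the porphyrin exporter Abcg2 fell by 2.96 ± 0.40. Haptoglobin (Hp) was called higher (5.43 ± 0.74) but at 6.23 CPM at most, beside 2000.2 CPM in neutrophil-like cells.

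All 3 genes of siderophore and lactoferrin binding rose in tumor epithelium, where 33.5% of all genes were called higher. Lcn2, which traps bacterial siderophores, went from 2.42 to 8.03 CPM in mucosa to 78.9 to 723 CPM in tumors (6.17 ± 0.69, adjusted p = 6.4e-06), with 545 CPM in tumor epithelial-like and 4102 CPM in neutrophil-like cells. Its receptor Slc22a17 (2.08 ± 0.48) and Ltf, lactoferrin (2.54 ± 0.82), stayed at low levels of 3.41 and 25.1 CPM at most. The 1 gene of this role tested in conventional T-like and in B-like cells was called higher there too (7.38 and 5.18), where 19.2% and 40.2% of genes passed. The part of neutrophil RNA in these rises was not tested. Of 7 genes of mitochondrial iron and iron-sulfur clusters, 5 fell and none rose in the epithelium (71.4% called, against 63.7% of all genes). The largest falls were those of Glrx5 (-0.82 ± 0.15), Iscu (-0.65 ± 0.15) and Nfs1 (-0.43 ± 0.10).

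Many of these epithelial calls depended on which epithelial clusters were summed. The narrower set also held fewer tumor cells, and the part of this in the changed calls was not tested. Without the tumor epithelial-like and Paneth-like clusters, 8 of the further genes rose and 11 fell of 45 tested (42.2%, against 37.0% of all genes). Heph turned from lower to higher (0.69 ± 0.18, adjusted p = 0.0076), and Steap3 (0.14), Aco1 (0.10), Alas1 (-0.11), Blvrb (0.06), Abcg2 (-0.66) and Iscu (-0.12) did not pass. Trf (3.40), Steap4 (3.73), Cp (7.36), Hp (5.77), Ltf (2.78), Cpox (-0.38), Glrx5 (-0.39) and Nfs1 (-0.32) passed in the direction given above, as did Lcn2 at a smaller value of 1.99 ± 0.51 (adjusted p = 0.0068). The part of neutrophil and macrophage RNA in these values was not tested.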

How the data were processed

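The authors deposited raw UMI counts per gene and barcode for each library (10x Genomics 3′ chemistry); the submitters' processing notes name Cell Ranger 6.0.0 and mm10, which is GRCm38. Barcodes with at least 500 UMIs, 200 genes and at most 25% mitochondrial UMIs were kept, doublet-like barcodes were removed by simulated doublets at 0.8% per 1000 cells, and cells were clustered on 2000 variable genes and 30 components (Leiden, resolution 1, Python 3.11.15). Clusters were named by fixed markers, and 20 cells per library and 2 libraries per tissue were required for a fit.

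Counts were summed per library and set of cells and compared with edgeR 4.0.16 in R 4.3.3 (TMM, filterByExpr, quasi-likelihood test, adjusted p below 0.05 over all genes of a fit), with DESeq2 1.42.0 as an alternative. The edgeR fit was tried on counts simulated from the sums of all epithelial cells and of conventional T-like cells. Several tumors came from 1 mouse, so p-values measure the spread between these libraries and not between mice. Mucosa and tumors of a mouse are the same animal, and the correlation of their deviations was 0.12, 0.061 and 0.10 for mice A, B and C over all cells and 0.21, 0.11 and 0.31 in epithelial cells. Libraries of a group differed by more than sampling noise. Counting error only is covered by shares of cells with a UMI, and those were thinned to 1000 UMIs per cell.

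Named genes were the 7 members, their near-identical copies, the 3 genes most correlated with each member among genes with at least 20 CPM in a class, and of each role of the wider list up to 3 with the largest change among those past the test in the epithelium and up to 2 with the highest class level. A gene of the wider list that this rule names is not reported here. The members and lists were chosen with earlier results of these data known. Alternatives were DESeq2, no low-count filter, library-size scaling, a mitochondrial limit of 10%, at least 1000 UMIs and 500 genes, doublets kept, the mouse as a block, tumors summed per mouse, and each library left out.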

Additional observations from a re-analysis of the deposited data

Results flagged for a closer look

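In 13 of 95 groups of tumors, 1 tumor lay apart from the rest by Dixon's criterion. Chance alone reaches it in about 1 in 20 groups of independent, normally distributed values. The tumors came from 3 mice and the groups from the same libraries, so the count does not measure an excess over chance. In C1q+ macrophage-like cells, tumor 10 had the highest Hmox1 at 1921 CPM (next 982), tumor 8 the highest Slc11a1 at 250.2 CPM (next 182), tumor 3 the highest Slc40a1 at 54.1 CPM (next 36.8) and tumor 6 the highest Ftl1 at 12995 CPM (next 11288). Tumor 10 also had the highest Hmox1 in absorptive epithelial-like cells, at 140.2 CPM (next 22.6). In those cells the erythroid marker genes summed to 1244 CPM, against 1.66 to 66.7 CPM in the other tumors. In mucosa they summed to 38.2 to 3333 CPM, and their part in the Hmox1 level was not tested.

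In B-like cells, Fth1 was highest in tumor 2 at 5137 CPM (next 4193) and Tfrc in tumor 5 at 66.9 CPM (next 48.1). Tumor 1 had the highest Ftl1 in neutrophil-like cells at 10349 CPM (next 7481), the lowest Ftl1 in Ly6c+ monocyte-like cells at 4234 CPM (next 4909) and the lowest Tfrc in plasma-like cells at 6.36 CPM (next 10.1). Tumor 6 had the highest Slc11a2 in conventional T-like cells at 20.6 CPM (next 13.3) and the lowest Fth1 in other epithelial cells at 1430 CPM (next 2097). Of 4 tumors with enough erythroid-like cells, tumor 2 had the highest Fth1 at 1531 CPM (next 1056).

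Between epithelial and conventional T-like cells, the tumor minus mucosa difference differed for Slc11a2 (0.88), Fth1 (-1.53) and Ftl1 (-0.77), each with an adjusted p of 0.0311 in the exact permutation test. That test used CPM without TMM, with the limits given beside it above.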

How the results depend on the processing

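The pairing by mouse as a block gave 12710 genes called over all cells against 12461, 10189 in epithelial cells against 9889, and changed no member call other than those given beside their results. The cause of the changes below was not tested. Without the tumor epithelial-like and Paneth-like clusters, and in cluster 15 alone, epithelial cells had 4549 and 2376 genes and 3 and 2 members called, and Slc40a1 was at 0.86 and 0.62. Other changes came with the mitochondrial limit of 10% (Slc40a1 over all cells 0.0459, goblet genes called 449, epithelial minus T difference of Slc40a1 0.0217 and of Tfrc -1.12), no low-count filter (goblet 2066, NK 273, erythroid 43 genes called), doublets kept (erythroid 239, goblet Fth1 0.22, Slc11a1 difference 0.73, plasma ferritin ratio 0.46), library-size scaling (plasma 5083 genes called, with Ftl1 -0.27, Hmox1 -0.44 and Fth1 -0.50, and T Tfrc -0.0226), DESeq2 (erythroid 1 gene called) and tumors summed per mouse (NK 2, dendritic 146). Cluster 9 and 24 alone gave 432 and 438 goblet genes, and Tfrc in cluster 24 was at -0.0467.

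Leaving out each library in turn gave 4 to 7 epithelial members called and 419 to 1250 goblet, 1058 to 1991 T, 31 to 206 NK, 89 to 332 dendritic and 0 to 153 erythroid genes called. The log2 ferritin ratio difference was 1.41 to 1.47 in all cells, 0.32 to 0.53 in epithelial, 1.12 to 1.29 in T, 0.80 to 0.89 in other epithelial, -0.32 to -0.17 in plasma and -0.0637 to 0.21 in absorptive cells. The epithelial minus T difference was -1.67 to -1.28 for Fth1, -0.88 to -0.58 for Ftl1, 0.80 to 0.95 for Slc11a2, -0.98 to -0.51 for Tfrc, -0.99 to -0.50 for Slc11a1 and -0.44 to 0.36 for Slc40a1. Without mucosa 1 or 2, the exact test has 15 assignments and cannot go below p = 0.0667. Without mucosa 3 it has 25, and the smallest p of 0.04 gave adjusted p of 0.056 for the ratios and 0.07 for the differences. Values near 0 changed sign for Slc40a1 over all cells (-0.62 to 0.0673; 0.00759 without mucosa 3), goblet Fth1 (-0.0609 to 0.0298) and Slc11a2 (-0.25 to 0.0157), T Tfrc (-0.0153 to 0.20) and plasma Hmox1 (-0.11 to 1.23). The goblet-like tumor cells were few, 7 to 131 per library, which limits their low genes.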
